A study of Mus musculus with 32 samples.

Results

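Polycomb repressive complex 2 (PRC2) is the enzyme that places methyl groups on lysine 27 of histone H3, a mark of silenced developmental genes. Ezh2 and Ezh1 are its alternative catalytic subunits, Suz12 and Eed are the core partners that the catalytic subunit needs for activity, and Jarid2, Mtf2, Phf19 and Aebp2 are accessory subunits that help to recruit the complex to chromatin or modulate it. Jarid2 is a DNA-binding relative of histone demethylases without demethylase activity and is abundant in pluripotent cells. The results below concern the RNAs made from these 8 genes, not the proteins they encode: which of them were captured on chromatin, how much, how far from their own gene, and on which genes.

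The RNAs were followed by RADICL-seq, in which an RNA and the DNA lying next to it in crosslinked nuclei are joined through a bridge adapter and sequenced as a pair of tags. The members were the interactions whose RNA tag carried the Ensembl identifier of Jarid2, Ezh2, Ezh1, Suz12, Eed, Mtf2, Phf19 or Aebp2, which are 8 of the 17784 RNA genes with an interaction in the tables. They held 109191 of 25231081 interactions (0.433%), and 86593 of those 109191 (79.3%) were of Jarid2.

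The cells were R08, a male embryonic stem cell line (mESC), and Oli-neu, a neural line derived from mouse oligodendrocyte progenitor cells (mOPC). Each is a single line, and the labels name no change to a member gene. The 6 groups, in 15 libraries, were mESC 1FA (untreated cells fixed with 1% formaldehyde, 3 libraries), mESC 2FA (untreated, 2% formaldehyde, 3 libraries), mESC ActD4 (5 µg/ml actinomycin D, an inhibitor of RNA polymerase II elongation, for 4 h and then 1% formaldehyde, 2 libraries), mESC NPM (untreated, 1% formaldehyde, with protein and its crosslinks taken away by proteinase K ahead of the ligation of RNA, 2 libraries), mOPC 1FA (untreated, 1% formaldehyde, 3 libraries) and mOPC NPM (2 libraries treated like mESC NPM). NPM stands for "non-protein mediated". Replicates are cell batches of different passage. The authors digested chromatin with DNase I for longer at 2% than at 1% formaldehyde, so fixation and digestion cannot be told apart in mESC 2FA.

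The tables list an interaction only where its pair of transcript and 25-kb DNA bin passed the authors' test on the pooled replicates of a group. The replicates of a group therefore share a list of pairs, the spread between them understates that of libraries called one by one, and an RNA listed at 0 can still have been captured. Libraries held from 251802 (an ActD4 library) to 2832717 (a 1FA library) listed interactions, which is not their sequencing depth. The markers fixed for mESC summed to 2531 to 3116 CPM in mESC 1FA and to 2.62 to 4.14 in mOPC 1FA, where 8 of those 10 genes were listed at 0. Dppa5a, among those 8, was listed at 0 in mESC 1FA as well. The mOPC markers summed to 29.5 to 60.1 CPM in mESC 1FA and 26243 to 29852 in mOPC 1FA, where Nkx2-2 was listed at 0. Of the other cell types, 2 of the 5 neuron markers were listed in mOPC 1FA (summed 1841 to 2036 CPM, against 58.9 to 72.5 in mESC 1FA), with Rbfox3, Snap25 and Tubb3 at 0, and 3 of the 5 endoderm markers in mESC 1FA (53.6 to 207 CPM, all 5 at 0 in mOPC 1FA), with Foxa2 and Sox17 at 0. Their part in the results was not tested.

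Most of what was captured of the Jarid2 RNA was intron, and recurrent tag positions lay near the start of the gene. Jarid2 lies at chr13:44729474-44921643 on the plus strand (mm10/GRCm38; GENCODE M21). In mESC 1FA 94.6% ± 1.37 (SD, n = 3) of its RNA tags lay in an intron, and the stretch nearest the transcription start, when the gene is cut into 5 equal stretches, held 41.7% ± 0.56 of them. The 30 bases around the 8 positions with most interactions outside the NPM libraries are given as the single positions that recurred most. They held a small part of the interactions, as given below. The sequences are genomic, of the plus strand from RefSeq's GRCm38.p6, all intronic, and capitals mark a GCAG that begins at least 6 bases 3′ of the tag centre.
Jarid2 site 1, chr13:44733443-44733472: gcgaggcagagcgtgagttgctgctgcggg
Jarid2 site 2, chr13:44762012-44762041: gatcccccgacaaggcgtatGCAGctggag
Jarid2 site 3, chr13:44746994-44747023: cgctgaacttgtcatgtgcttcttaGCAGa
Jarid2 site 4, chr13:44743403-44743432: attagacagaaaggctttcttactgaaggg
Jarid2 site 5, chr13:44743181-44743210: gactgaagtgtactctattgtcttctggga
Jarid2 site 6, chr13:44733685-44733714: gctagggggtggtggtggtgggggtgagga
Jarid2 site 7, chr13:44748457-44748486: tcagtgtggtcaattttagaacattGCAGc
Jarid2 site 8, chr13:44775804-44775833: aaacaaacccttttctcctcaccagaGCAG

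Site 1, 3.98 kb into the gene, was the RNA end of 1236 interactions with 393 DNA bins, and site 2, 32.6 kb into the gene, of 770 interactions with 363 bins. Together the 8 sites held 4.51%, 4.72% and 4.78% of the Jarid2 interactions in the 3 mESC 1FA libraries and 4.62%, 5.49% and 5.40% in the mOPC 1FA libraries. They held 0.305% and 0.511% in the mESC NPM libraries, and 0 and 0.797% in the mOPC NPM libraries. The sites thus held a share of 4.51% to 5.49% in both cell lines under 1FA and under 1% in NPM in both. Since the sites were ranked on the libraries without NPM, these shares are a description.

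A GCAG that starts 11 or 12 bases 3′ of the tag centre, on the RNA's strand only, was found for 12.8% ± 0.63 (SD, n = 3) of the Jarid2 interactions in mESC 1FA, 13.3% ± 1.23 in mESC 2FA, 12.8% ± 0.22 (n = 2) in ActD4 and 8.98% ± 1.498 (n = 3) in mOPC 1FA. The same letters occur at that offset from 0.945% of all positions of the gene. Over distinct tag positions, each counted once, the share was 4.41% in mESC 1FA, 10.01% in ActD4 and 7.77% in mOPC 1FA, so that mESC 1FA then lay below mOPC 1FA. In NPM the share of interactions was 1.55% ± 0.46 in mESC and 1.76% ± 0.32 in mOPC (n = 2 each). The shares in mESC 1FA were 12.1% ± 0.61 for Aebp2, 10.3% ± 0.55 for Mtf2 and 8.72% ± 2.83 for Suz12, and 3.35% ± 0.52, 3.26% ± 0.60 and 3.21% ± 0.39 for Ezh2, Ezh1 and Eed, and 0 of the 36 interactions of Phf19 had it. Of the Jarid2 interactions with and without it in mESC 1FA, 48.0% ± 0.56 and 47.6% ± 0.68 lay on chromosome 13 beyond 1 Mb. The part of these letters in the number of interactions was not tested.

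**Figure D1:**
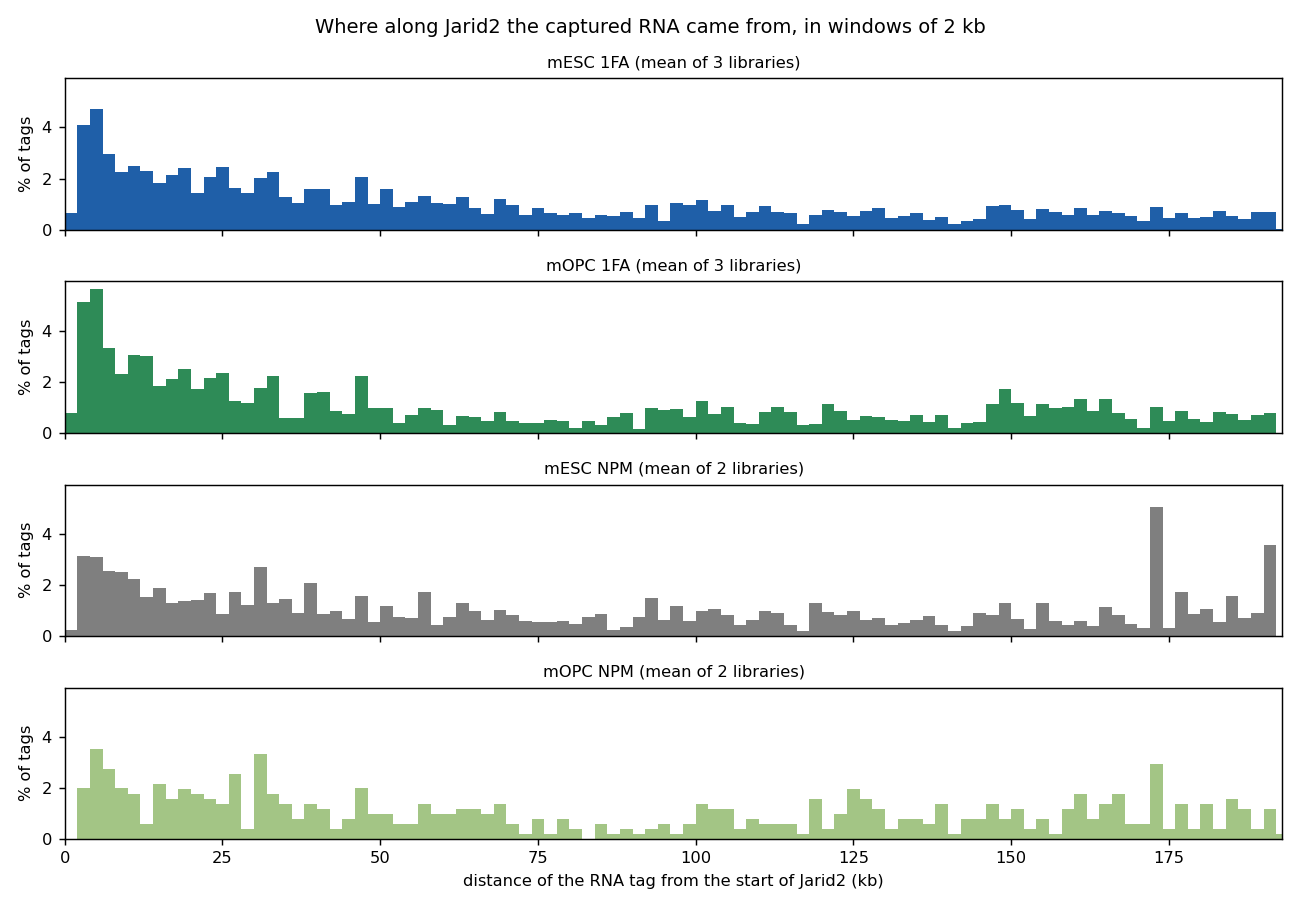
Share of Jarid2 RNA tags (y axis, % of tags, mean over libraries) in 2-kb windows by distance from the start of the gene (x axis, kb) in 4 groups. In both 1FA groups the tags pile up in the first of 5 equal stretches of the gene, which held 41.7% of them in mESC and 43.7% in mOPC, against 33.02% and 33.5% in the NPM groups.

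Jarid2 was among the most frequently listed RNAs in embryonic stem cells and ranked lower in Oli-neu. By pooled interactions it ranked 5th of 14248 transcripts in mESC 1FA, 5th of 14479 in mESC 2FA, 16th of 8478 in ActD4 and 7th of 11679 in mESC NPM, but 484th of 11681 in mOPC 1FA and 846th of 14633 in mOPC NPM. The next member was Mtf2 in mESC 1FA (450th), 2FA (505th) and mESC NPM (161st), and Phf19 ranked 9227th in mESC 1FA. It was Suz12 in ActD4 (664th), Aebp2 in mOPC 1FA (1666th) and Ezh2 in mOPC NPM (2084th). In mOPC NPM Jarid2 had 512 pooled interactions beside 258 of Ezh2. Jarid2 is also the longest of the 8 genes, at 192 kb against 20.3 kb for Phf19 and 65.2 kb for Ezh2.

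Levels were also taken per kilobase of gene. This allows for gene length, but not for differences between RNAs in the share of tags that passed the authors' test. CPM is a library's listed interactions of an RNA brought to a common library size by TMM scaling. In mESC 1FA the capture level was 30.9 ± 2.17 CPM per kb for Jarid2 (SD, n = 3). Mtf2 followed with 9.86 ± 1.80, Suz12 with 6.53 ± 0.79 and Eed with 5.97 ± 0.71, and the last pair did not differ beyond their spread. Ezh1 (3.06 ± 0.71), Aebp2 (2.86 ± 0.32) and Ezh2 (2.59 ± 0.34) also overlapped in their spread, and Phf19 was lowest at 0.243 ± 0.096. In mOPC 1FA the order per kilobase began with Aebp2 (2.90 ± 0.30), Eed (2.62 ± 0.66) and Jarid2 (2.61 ± 0.47), and these 3 did not differ beyond their spread. Ezh1 (1.43 ± 0.33), Suz12 (0.982 ± 0.21), Mtf2 (0.932 ± 0.11), Ezh2 (0.706 ± 0.039) and Phf19 (0.230 ± 0.11) came after them. Fewer cells that make an RNA and less of it per cell cannot be told apart in these bulk libraries.

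**Figure D2:**
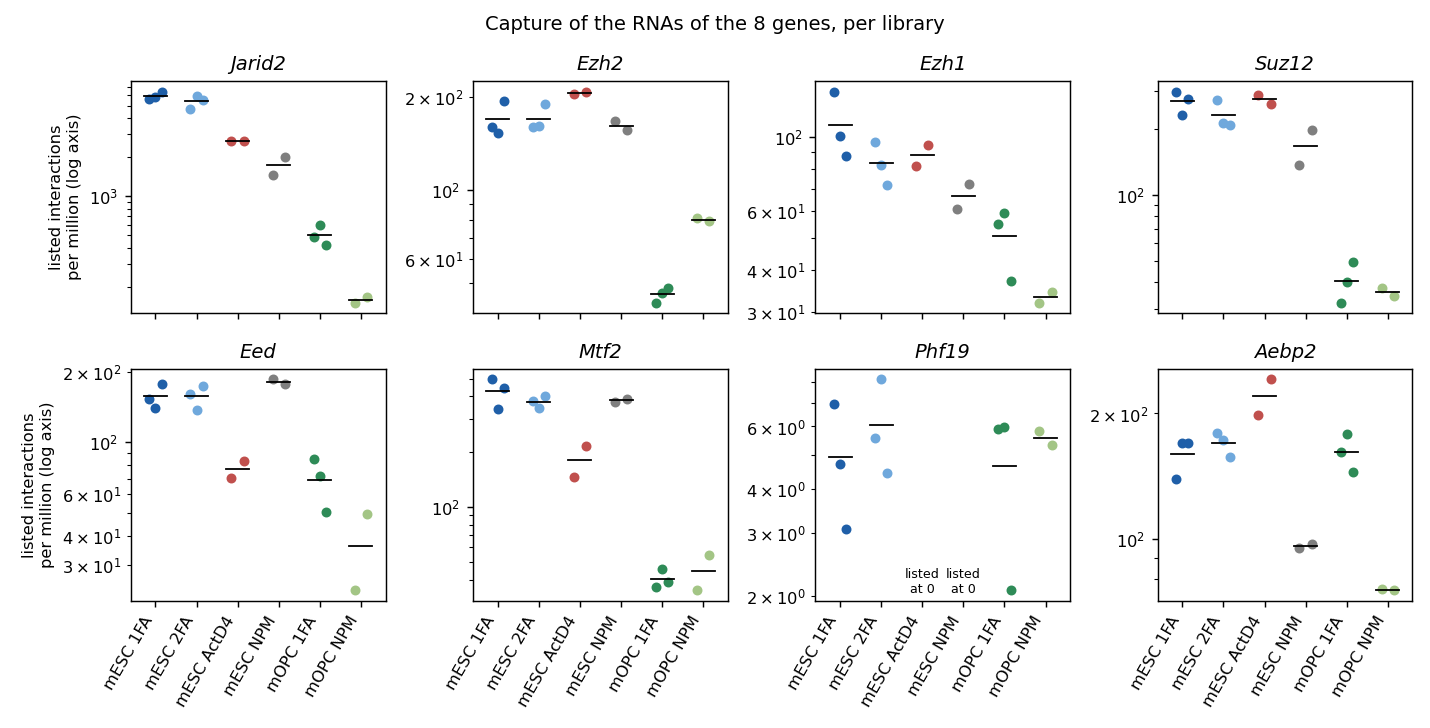
Capture of each RNA in every library (points; y axis, CPM of listed interactions, log axis) in the 6 groups, with the group mean as a bar. Jarid2 lies at 5602 to 6399 CPM in mESC 1FA and at 422 to 601 in mOPC 1FA, whereas Aebp2 overlaps between those groups.

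The comparison of mOPC with mESC under 1% formaldehyde asked which of these RNAs were captured differently between the cell types. Capture, counted in listed interactions, was 11.4-fold lower in mOPC for Jarid2, 9.97-fold for Mtf2 and 6.37-fold for Suz12. It was lower by 3.47-fold for Ezh2 and by less for Eed and Ezh1, and no change passed the test for Aebp2. The part of the authors' listing criterion in these folds was not tested. Jarid2 had 13688, 13495 and 16553 interactions in the mESC 1FA libraries (5602, 5789 and 6399 CPM). It had 736, 802 and 611 in the mOPC 1FA libraries (483, 601 and 422 CPM). The groups are far apart, and the log2 fold change was −3.51 (SE 0.13, limma with Benjamini-Hochberg adjustment over 10007 transcripts, adjusted p = 6.91e-08). With libraries scaled by their total it was −4.02 (16.2-fold lower).

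Mtf2, a Polycomb-like accessory subunit, had 495, 342 and 445 CPM in mESC 1FA and 36.7, 45.7 and 38.7 in mOPC 1FA, a log2 fold change of −3.32 (SE 0.15). Suz12, the core scaffold subunit, had 297, 233 and 273 CPM against 32.1, 39.7 and 49.0, a log2 fold change of −2.67 (SE 0.17). All 3 mOPC libraries lay below all 3 mESC libraries for both. For the catalytic Ezh2 the values were 159, 153 and 194 CPM against 43.3, 46.5 and 48.3 (−1.79, SE 0.12), and for its paralogue Ezh1 136, 100.4 and 87.8 CPM against 55.1, 59.2 and 37.3 (−1.03, SE 0.22). Eed, which binds the methylated histone tail, had 153, 141 and 177 CPM against 84.6, 72.0 and 50.4 (−1.14, SE 0.19). The groups did not overlap for any of these 3, and their adjusted p (limma) ranged from 3.17e-06 to 0.00267.

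Aebp2 did not pass the test, with 140, 170 and 170 CPM in mESC 1FA and 162, 178 and 145 in mOPC 1FA (limma, log2 fold change 0.09, SE 0.12, adjusted p = 0.513). Its sign turned when libraries were scaled by their total, which shifts the median of all transcripts by −0.51 (log2) and gives Aebp2 −0.43 (adjusted p = 0.00784), and with each pair counted once it was called higher (0.15, limma adjusted p = 0.000576). Phf19 had 17, 11 and 8 interactions in mESC 1FA and 9, 8 and 3 in mOPC 1FA, too few for the test. In all, limma called 6 of the 7 members it tested (adjusted p below 0.05), all lower in mOPC, in a comparison where 77.9% of all transcripts were called, 42.7% lower and 35.2% higher. The groups did not overlap for 6 of the 7, and did not for 80.6% of all transcripts. The median log2 fold change was −1.79 over the 7 members and −0.20 over all transcripts.

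The 325 transcripts tested on chromosome 13 had a median log2 fold change of −0.34, and the 4 others within 1 Mb of Jarid2 had a median of 1.00, with none called lower. Around Mtf2 the median of 19 transcripts within 1 Mb was 0.10, and around Suz12 that of 14 was −1.05, with 9 of the 14 called lower. Eed shares its strand with Gm45120, a gene that overlaps it, so reads of these 2 may be split by the annotation.

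The difference between the cell lines stood also among the NPM libraries, where 6 of 7 members tested were called, all lower in mOPC, where 50.3% of all transcripts were called, 23.1% lower and 27.2% higher. The groups did not overlap for 7 of 7 members and 78.4% of all transcripts. Jarid2 had 1459 and 2016 CPM in mESC NPM and 152 and 167 in mOPC NPM (limma, log2 fold change −3.21, SE 0.19, adjusted p = 9.89e-05). Mtf2 was lower by −2.90 (SE 0.24), Eed by −2.19 (SE 0.37) and Suz12 by −1.96 (SE 0.22) on the log2 scale, and Ezh2 (−0.79, SE 0.15) and Ezh1 (−0.77, SE 0.20) by less. With 2 libraries a group, leaving out 1 library leaves a single library in that group. This ended the call of Ezh1 in each of the 4 cases, with log2 fold changes of −0.84 to −0.63. The call of Ezh2 ended without either mOPC NPM library (−0.81 and −0.75), and that of Eed without either mESC NPM library (−2.10 and −2.21). Aebp2 again did not pass the test (−0.13, SE 0.15, adjusted p = 0.4996), but was called lower under total scaling (−0.54, limma adjusted p = 0.0367).

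**Figure D3:**
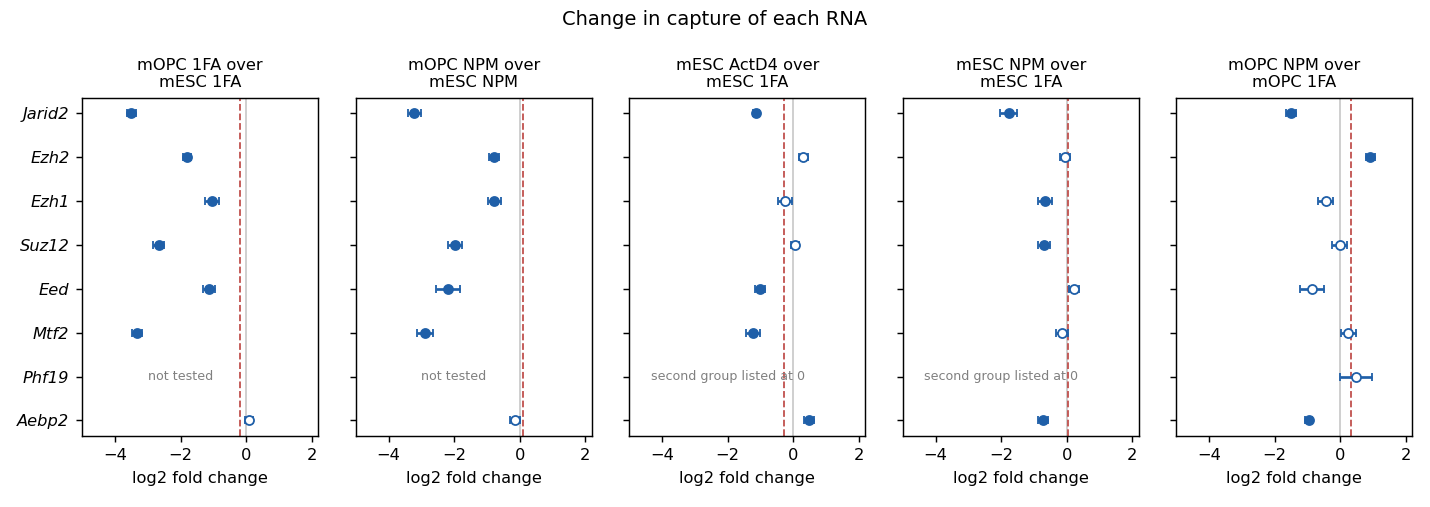
Change in capture of each RNA (x axis, log2 fold change of the group named first over the second, bars SE) in 5 comparisons, filled where limma's adjusted p was under 0.05, with the median of all transcripts as a dashed line. Jarid2 lies left of the dashed line in all 5 panels, from −3.51 to −1.13; of the others, total scaling turns the sign of Aebp2 in the first panel, of Ezh2, Ezh1 and Mtf2 in mESC NPM and of Ezh1 and Suz12 in mOPC NPM.

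Doubling of the formaldehyde concentration, which went with a longer DNase I digestion, moved none of the 8 RNAs past the test. By limma 0 of 8 members were called, with 0 at an unadjusted p under 0.05. Of all transcripts 0.0305% were called, 0.0203% higher and 0.0102% lower, and 1136 of 9837 had an unadjusted p (limma) under 0.05. The groups overlapped for all 8, while 17.9% of all transcripts did not overlap. Jarid2 had 4677, 5926 and 5545 CPM in mESC 2FA against 5602, 5789 and 6399 in 1FA (log2 fold change −0.12, SE 0.11, adjusted p = 0.692). The other 7 members had log2 fold changes from −0.34 (Ezh1, SE 0.17) to 0.33 (Phf19, SE 0.39). The 2 sets of libraries are paired by replicate number, and the fit with the pairs as a block also called 0 of 8. With each pair of RNA and bin counted once, 6 of 8 were called, all lower and from −0.28 (Ezh1) up, with Jarid2 at −0.08. In that setting 76.5% of all transcripts were called, and since the libraries of a group share their list of pairs, their spread is small by construction.

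Treatment with actinomycin D for 4 h, a test of how much capture depends on ongoing transcription, split the members. Relative to all listed interactions, Jarid2, Mtf2 and Eed were captured less, Aebp2 more, and Ezh2, Ezh1 and Suz12 did not pass the test. The ActD4 libraries held 418781 and 251802 listed interactions, against 2441619 to 2832717 in 1FA, so these values are shares of a smaller total. By the authors' own counts, the actinomycin D libraries also had fewer uniquely mapped pairs than the untreated mESC libraries. How much of the smaller lists this makes up, and how much the drug, was not tested. Jarid2 had 1211 and 711 interactions in the ActD4 libraries, or 2674 and 2682 CPM, against 5602 to 6399 in 1FA (limma, log2 fold change −1.13, SE 0.086, adjusted p = 1.97e-05, 2.18-fold lower). Mtf2 had 146 and 215 CPM against 342 to 495 (−1.23, SE 0.21) and Eed had 70.7 and 83.0 against 141 to 177 (−1.01, SE 0.15).

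Aebp2 had 90 and 64 interactions in ActD4 against 341 to 439 in 1FA. In CPM it had 199 and 241 in ActD4 against 140 to 170 in 1FA (limma, log2 fold change 0.48, SE 0.15, adjusted p = 0.0267). Its call was lost without the second ActD4 library (0.33), which leaves 1 library in that group. Ezh2 had 203 and 207 CPM against 153 to 194, groups that do not overlap, with a log2 fold change of 0.31 (SE 0.14, adjusted p = 0.0834) that was called under total scaling (0.49, adjusted p = 0.0132). It was also called with the replicate block (0.44, limma adjusted p = 0.0323) and without mESC 1FA replicate 3 (0.44, limma adjusted p = 0.0272). Suz12 (0.06, SE 0.13) and Ezh1 (−0.26, SE 0.21) overlapped between the groups. Without own-gene contacts Suz12 (0.73, limma adjusted p = 0.00589) and Ezh2 (0.97) were called higher, as they were with each pair counted once (0.71, limma adjusted p = 1.63e-07, and 1.30), and, with Aebp2, 3 members were called higher in each of these settings. Of all transcripts 60.6% were called without own-gene contacts and 93.4% with each pair once. Phf19 was listed at 0 in both ActD4 libraries, so that its direction was fixed by the 0 and no fold is given. Leaving it out, 4 of 7 members were called, 3 lower and 1 higher, where 62% of all transcripts were called, 40.3% lower and 21.7% higher. For 5 of 7 members and 75.5% of transcripts the groups did not overlap. Total scaling moves the median of all transcripts by 0.18 here, and the share of calls that are higher from 35.0% to 43.1%.

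After removal of proteins before ligation Jarid2 made up less of the listed interactions in both cell lines. By the authors' own counts for mESC, a smaller part of the raw Jarid2 interactions passed their test in NPM than in 1FA. How much of the lower share this makes up was not tested. In mESC NPM it had 983 and 1761 interactions, or 1459 and 2016 CPM, against 5602 to 6399 in 1FA (limma, log2 fold change −1.77, SE 0.25, adjusted p = 0.000275, 3.42-fold lower). In mOPC NPM it had 261 and 251, or 152 and 167 CPM, against 422 to 601 (−1.51, SE 0.15, adjusted p = 0.000305, 2.85-fold lower). Under total scaling both stayed called with smaller values, −1.10 (2.15-fold lower) in mESC and −0.70 (1.63-fold lower) in mOPC. The difference between the lines in this effect did not pass the test of the interaction (0.13, SE 0.26, limma adjusted p = 0.723), in which 35.7% of all transcripts were called.

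The other members answered unevenly to NPM. In mESC Phf19 was listed at 0, which fixed its direction. Of the other 7 members 4 were called, all lower, where 53.2% of transcripts were called, 28.4% lower and 24.8% higher. The groups did not overlap for 5 of 7 members and 70.2% of transcripts. Beside Jarid2 these were Aebp2 (95.0 and 97.3 CPM against 140 to 170, log2 fold change −0.71, SE 0.15), Suz12 (137 and 197 against 233 to 297, −0.69, SE 0.19) and Ezh1 (60.8 and 72.1 against 87.8 to 136, −0.67, SE 0.21). Total scaling, which moves the median of all transcripts by 0.66 and the share of calls that are higher from 46.6% to 81.3%, left Suz12 at −0.02, Aebp2 at −0.04 and Ezh1 at 0.00, none of them called. The call of Ezh1 was also lost without mESC 1FA replicate 1 (−0.43, limma adjusted p = 0.0798) and without mESC 1FA replicate 2 (−0.64, limma adjusted p = 0.0504). Without mESC NPM replicate 1, which leaves 1 library in that group, the calls of Ezh1 (−0.53) and Suz12 (−0.41) were lost. Ezh2, Eed and Mtf2 had log2 fold changes of −0.05, 0.23 and −0.14 that did not pass the test, but under total scaling all 3 were called higher (0.62, 0.90 and 0.53, adjusted p by limma 0.00478, 0.000616 and 0.0126). With each pair counted once all 3 were called lower (−0.22, −0.97 and −1.41, adjusted p by limma 5.91e-06, 6.20e-07 and 6.32e-07), in a setting that called 94.5% of all transcripts.

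In mOPC, 3 of 8 were called, where 55.9% of transcripts were called, 24.1% lower and 31.8% higher. For 4 of 8 members and 74.9% of transcripts the groups did not overlap. Jarid2 and Aebp2 (75.8 and 75.1 CPM against 145 to 178, log2 fold change −0.97, SE 0.11) were lower and Ezh2 (81.0 and 79.1 against 43.3 to 48.3, 0.92, SE 0.13) was higher. Total scaling (a shift of 0.79, with 90.7% of calls higher against 56.9%) ended the call of Aebp2 (−0.16, adjusted p = 0.215) and turned the sign of Ezh1 and Suz12. Suz12 (0.79, adjusted p = 0.0262), Mtf2 (1.05, adjusted p = 0.00529) and Phf19 (1.25, adjusted p = 0.0461) were then called higher by limma, so that 4 of 5 calls were higher. All listed Ezh2 interactions in mOPC NPM lay on the Ezh2 gene. Eed had 23.3 and 49.2 CPM in mOPC NPM against 50.4 to 84.6 (−0.86, SE 0.36, limma adjusted p = 0.0803), and Eed (−1.08) and Ezh1 (−0.66) were called with the replicate block and without mOPC 1FA replicate 3.

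As listed, the contacts of Jarid2 RNA ran far along chromosome 13 in mESC 1FA and 2FA and lay nearer to its gene in the other conditions. This order was lost for ActD4 and turned for mOPC 1FA when numbers were drawn equal and sparse pairs left out. In mESC 1FA 14.1% to 16.0% of its interactions fell on the Jarid2 gene itself and 47.3% to 48.3% on chromosome 13 beyond 1 Mb from the RNA tag. In mESC 2FA the shares beyond 1 Mb were 46.5%, 43.6% and 43.1%, in ActD4 10.4% and 11.5%, in mOPC 1FA 17.8%, 16.2% and 15.9%, and in NPM 0 in all 4 libraries. On its own gene fell 35.9% and 37.1% in ActD4, 39.4%, 31.5% and 41.4% in mOPC 1FA, 90.8% and 89.9% in mESC NPM and 100% in both mOPC NPM libraries.

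For the share beyond 1 Mb mESC 1FA did not overlap any other group as listed. The differences of mOPC 1FA and ActD4 from mESC 1FA did not hold in 1 setting (5.61 points, exact permutation p = 0.2, and 0.23 points, exact permutation p = 1). For the own-gene share mESC 1FA and 2FA overlapped, and ActD4 lay within the range of mOPC 1FA. The share beyond 1 Mb was 47.7% ± 0.56 in mESC 1FA (SD, n = 3) and 16.6% ± 1.03 in mOPC 1FA (n = 3), two-sided exact permutation p = 0.1, the smallest that 3 against 3 allows, and 0.133 after adjustment over 28 tests. ActD4 (10.97% ± 0.80, n = 2) differed from mESC 1FA with the same exact p = 0.1, the smallest of 10 splits. In 2FA the share was 44.4% ± 1.86, lower in 3 of the 3 replicate pairs, with a paired exact permutation p of 0.25, the smallest that 3 pairs allow. NPM against 1FA over both lines gave an exact permutation p of 0.01 (0.0933 adjusted), the smallest of 100 splits. It was the same for the share beyond 1 Mb (a mean difference of −32.1 percentage points) and the share on the own gene (68.8 points). The libraries of a group share their list, so a pair not listed for a group is at 0 in all its libraries. These exact tests therefore cannot tell a difference between groups from one between their lists, and no conclusion is drawn from their p.

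These differences did not hold under 1 other setting, which changed both the number of interactions and the pairs kept, so that the part of each was not tested. When each group's Jarid2 interactions were drawn down to 512 and only pairs with at least 5 were kept, 4.92% ± 3.62 lay beyond 1 Mb in mESC 1FA, 5.15% ± 0.016 in ActD4 and 10.5% ± 3.65 in mOPC 1FA. The own-gene share then was 50.7% ± 9.69, 43.2% ± 7.38 and 46.7% ± 7.44, with an exact permutation p of 0.4 for ActD4 and 0.7 for mOPC 1FA against mESC 1FA. The NPM libraries kept 0 beyond 1 Mb and 93.4% and 100% on the own gene after the same draw. The 11 protein-coding RNAs with an interaction number within 2-fold of that of Jarid2 in mESC 1FA had a median of 47.8% beyond 1 Mb, beside 47.6% for the pooled Jarid2 interactions, whereas on the own gene Jarid2 had 15.3% and all 11 had more (median 26.2%). In mOPC 1FA the 839 such RNAs had a median of 6.21% beyond 1 Mb, and 83.0% of them lay below the 16.7% of Jarid2. In ActD4 the medians of 44 such RNAs were 5.00% beyond 1 Mb and 53.1% on the own gene, beside 10.8% and 36.4% for Jarid2. In mESC NPM those of 21 were 0 and 92.0%, beside 0 and 90.2% for Jarid2. In mOPC NPM those of 1764 were 0 and 100%, as for Jarid2.

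**Figure D4:**
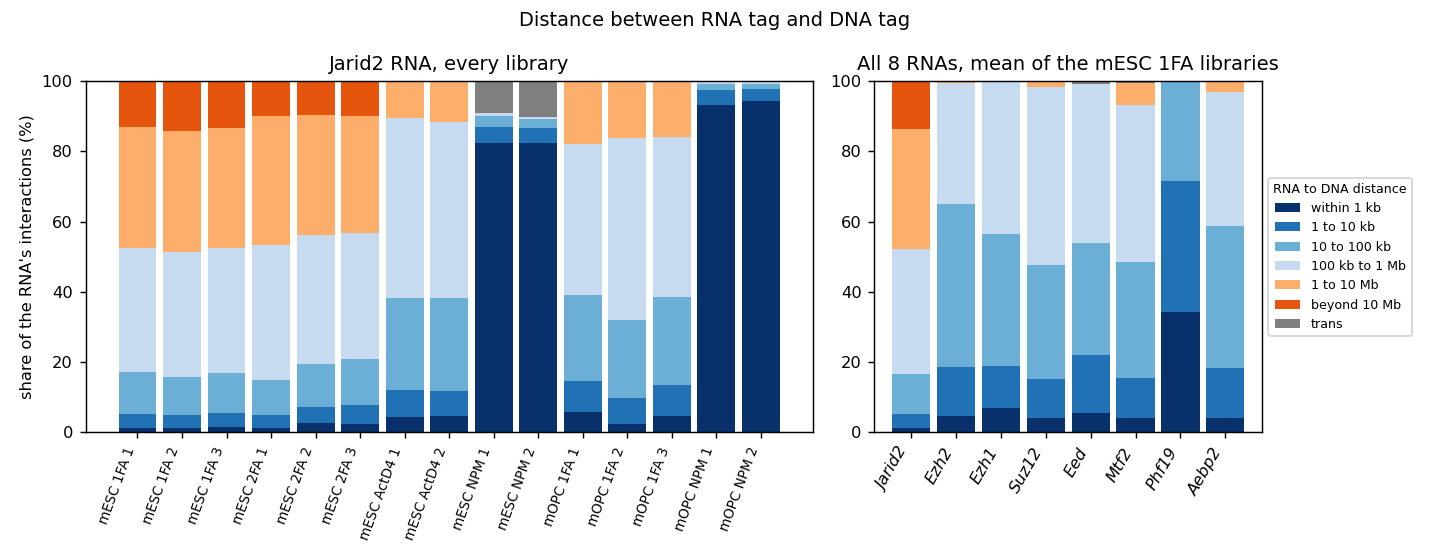
Distance between RNA and DNA tag (stacked bars, y axis, share of the RNA's interactions in %) for Jarid2 in each of 15 libraries and for all 8 RNAs as the mean of the mESC 1FA libraries. The orange classes beyond 1 Mb make up 47.7% of the Jarid2 interactions in mESC 1FA, 16.6% in mOPC 1FA and 0 in NPM, and at most 6.39% for any of the other 7 RNAs.

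In mESC 1FA the pooled Jarid2 interactions filled 1051 bins, of which 1047 were on chromosome 13 (21.7% of its bins), and reached a DNA tag 68178 kb from the edge of the gene. On chromosome 13 they filled 828 bins in 2FA (17.2%), 75 in ActD4 (1.56%), 81 in mOPC 1FA (1.68%) and 8 in NPM of either cell line, while 9 further bins in mESC NPM lay on other chromosomes. Every one of the 81 mOPC bins and all 75 ActD4 bins were in the mESC 1FA set. The farthest tags of these smaller lists lay 1746 kb (mOPC 1FA) and 2026 kb (ActD4) from the gene. The part of sequencing depth in these numbers of bins and distances was not tested. Nor was the part of list size and nearness to the gene in the overlap. Of the 830 2FA bins on any chromosome 690 were in the mESC 1FA set, which is 65.7% of the 1FA set and 83.1% of the 2FA set. Jarid2 has 44.7 Mb of chromosome upstream and 75.5 Mb downstream. In mESC 1FA 11.2% ± 0.44 of its interactions lay 0.1 to 0.5 Mb upstream and 5.30% ± 0.24 the same distance downstream, but from 10 to 20 Mb 2.42% ± 0.12 lay upstream and 5.43% ± 0.46 downstream. In mOPC 1FA the stretch from 0.5 to 1 Mb upstream held 22.01% ± 1.85 against 11.2% ± 0.57 in mESC 1FA.

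**Figure D5:**
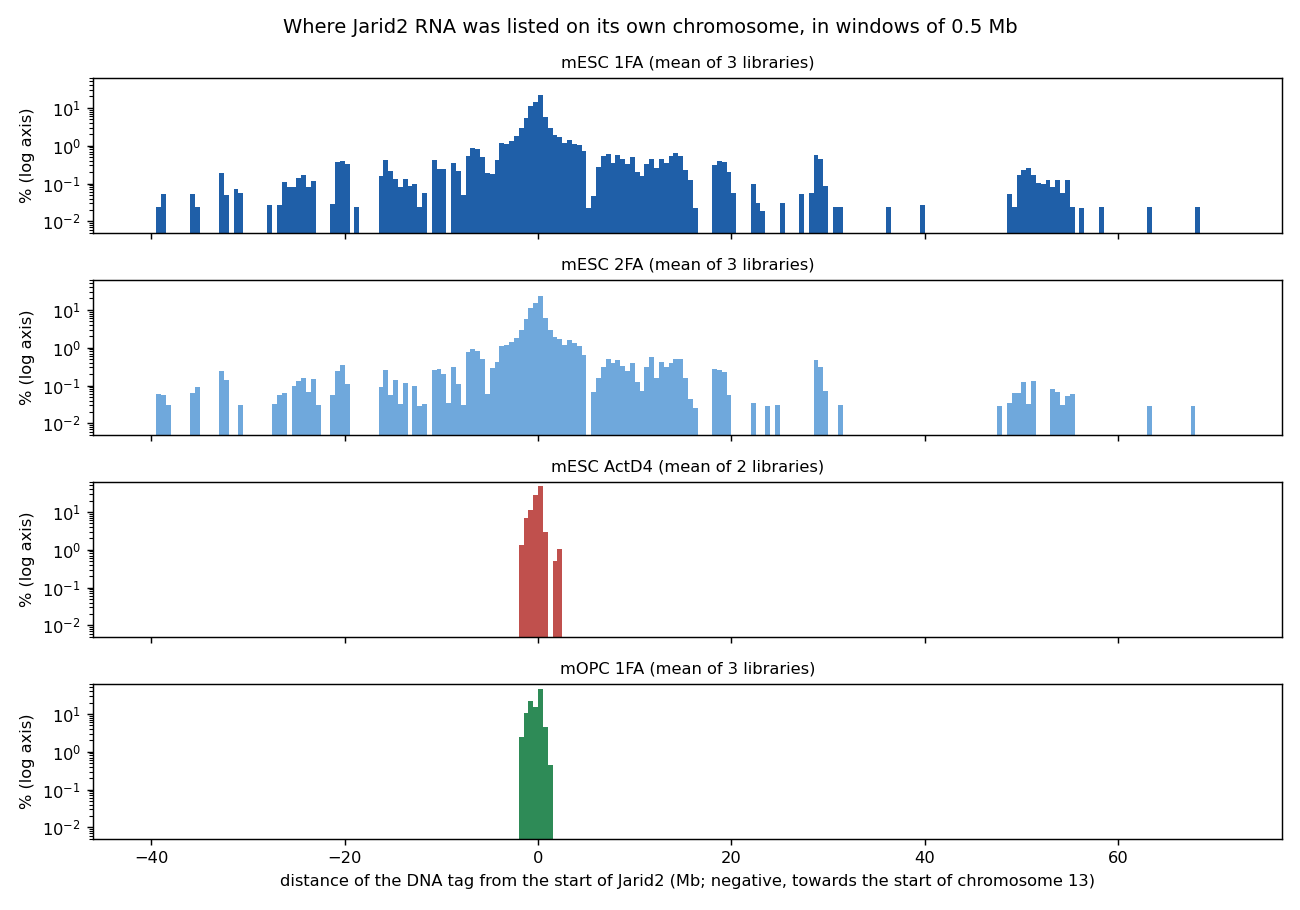
Share of Jarid2 interactions (y axis, %, log axis, mean over libraries) by the distance of the DNA tag from the start of Jarid2 (x axis, Mb) in windows of 0.5 Mb. The farthest DNA tag lay 68178 kb from the edge of the Jarid2 gene in mESC 1FA, 2026 kb in ActD4 and 1746 kb in mOPC 1FA.

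The gene on which Jarid2 RNA was most often found, beside its own, was its neighbour in mESC 1FA, 2FA, ActD4 and mOPC 1FA. Dtnbp1, the next gene downstream, 0.432 kb away, encodes the dysbindin trafficking protein and took 3.37% ± 0.10 of the interactions in mESC 1FA, 8.93% ± 0.69 in ActD4 and 5.47% ± 1.32 in mOPC 1FA. Atxn1, the ataxin 1 gene 628 kb away, followed in mESC 1FA with 2.72% ± 0.29 and Phactr1, a phosphatase and actin regulator 1591 kb away, with 2.40% ± 0.14. Then came the long noncoding RNA genes Gm27007 (1.51% ± 0.11), AC165254.1 (1.19% ± 0.049) and AC170597.2 (1.00% ± 0.049), Gfod1 (0.916% ± 0.098) and 1700029N11Rik (0.867% ± 0.045). The same 8 genes in the same order led in 2FA. Shares by DNA gene, here and for the other members, are not corrected for the length of the DNA gene. The part of that length in the order was not tested. In all, 44.3% ± 1.25 of the mESC 1FA interactions fell on DNA without an annotated gene.

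In mOPC 1FA the leading genes after Dtnbp1 were Ranbp9 (1.85% ± 0.52, 1248 kb away), AC159239.1 (1.78% ± 0.41), Gm27007 (1.66% ± 0.45), AC159239.2 (1.44% ± 0.43), Rnf182 (1.28% ± 0.32), Gfod1 (1.04% ± 0.14) and Cd83 (0.991% ± 0.45), so that neither Atxn1 nor Phactr1 was among the first 8. AC165254.1 was listed at 0 there and in ActD4. In ActD4 the genes after Dtnbp1 were Gm27007 (3.29% ± 0.48), AC170597.2, AC159261.1, 1700029N11Rik, Gfod1, Gmpr and AC167012.1.

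At 250 interactions drawn per library, Jarid2 met 61.6 ± 0.38 DNA genes in mESC 1FA (SD, n = 3), 55.9 ± 0.23 in 2FA, 21.5 ± 1.43 in ActD4, 22.1 ± 1.17 in mOPC 1FA, 8.81 ± 1.12 in mESC NPM and only its own in mOPC NPM. The exact permutation p of ActD4, mESC NPM and mOPC 1FA against mESC 1FA was 0.1 each, the smallest possible, or 0.133 adjusted. For 2FA the same test also gave 0.1, but it ignores the pairing by replicate number. A paired exact test of 3 pairs could give no p below 0.25. NPM against 1FA over both lines gave an exact permutation p of 0.01, or 0.0933 adjusted. These draws keep the list of pairs as it was called and so do not remove the effect of the number of interactions on the list. Nor can these exact tests tell groups from their lists, which the libraries of a group share. Genes beyond 1 Mb with at least 10 Jarid2 interactions in every library numbered 66 in mESC 1FA and 46 in 2FA. The farthest in 1FA were Iqgap2, 50706 kb downstream with 13 to 29 interactions a library, Ryr2, the cardiac ryanodine receptor gene, 32623 kb upstream with 12 to 22, Slc12a7 (28812 kb), Elmo1 (24121 kb, 32 to 45 interactions) and Carmil1 (20449 kb, 27 to 39). Ryr2, Elmo1 and Carmil1 were also the farthest in 2FA, before Fam65b (19996 kb) and 2010111I01Rik (18043 kb). The minimum of 10 interactions is likewise not corrected for the length of the DNA gene.

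Contacts of Jarid2 with other chromosomes were rare outside mESC NPM. They made up 0.161%, 0.371% and 0.169% in mESC 1FA and 0.140% ± 0.066 in 2FA, and were listed at 0 in ActD4 and both mOPC groups, but made up 9.16% and 10.1% in mESC NPM. Over all RNAs the interchromosomal share was 3.61% and 4.87% in the mESC NPM libraries, 5.44% to 6.73% in mESC 1FA and up to 13.3% elsewhere. Of the 268 interchromosomal Jarid2 interactions in mESC NPM, 154 (57.5%) fell in the bin chr17:39825001-39850000, which carries ribosomal RNA gene labels, and so did 65 of 100 in mESC 1FA. A further 24 in mESC NPM fell on n-R5-8s1, another ribosomal RNA gene label. The same bin held all the interchromosomal contacts in mESC NPM of Mtf2 (20), Suz12 (18), Eed (14) and Ezh1 (9), whereas Ezh2 and Aebp2 had none. No member's RNA was listed on the gene of another member in any library. Little room was left for such contacts. Ezh2 and Aebp2 share chromosome 6 (starts at 47530139 and 140622663), and Ezh1 and Suz12 chromosome 11 (101191115 and 79993106). The RNAs of these genes reached at most 2979 kb from their own gene in cis. The other pairs of members lie on different chromosomes.

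The other members had smaller shares beyond 1 Mb, from far fewer interactions. In mESC 1FA 6.39% ± 0.39 of the Mtf2 interactions lay in cis beyond 1 Mb, 3.09% ± 1.12 of those of Aebp2, 1.69% ± 0.39 of those of Suz12 and 0.674% ± 0.75 of those of Ezh2, with 0 for Ezh1, Eed and Phf19. Jarid2 had 4.92% ± 3.62 where 512 interactions were drawn and only pairs of at least 5 kept, a filter not applied to the other RNAs. Protein-coding RNAs with interaction numbers within 2-fold had a median of 5.98% beside Mtf2, 0.911% beside Aebp2, 2.80% beside Suz12, 1.05% beside Ezh2, 0.890% beside Eed and 0 beside Ezh1 and Phf19. Suz12, Ezh2 and Eed lay below that median and Mtf2 and Aebp2 above it. In mOPC 1FA Aebp2 alone of these 7 had any (5.42% ± 1.03). The share on the own gene in mESC 1FA ran from 21.7% ± 1.15 for Ezh1 over 22.9% ± 2.44 for Mtf2, 23.1% ± 3.92 for Suz12, 24.96% ± 3.04 for Eed, 34.7% ± 3.07 for Aebp2 and 36.3% ± 1.09 for Ezh2 to 74.7% ± 1.89 for Phf19, and the first 4 did not differ beyond their spread. In NPM all 8 RNAs had at least 90.4% of their interactions on their own gene on average, except Phf19 in mESC NPM, which was listed at 0. Over all RNAs the share on the own gene was 93.0% to 95.8% in the NPM libraries.

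Each met the genes beside it. Ezh2 RNA lay on Cul1, a cullin scaffold of ubiquitin ligases 4 kb away, in 17.8% ± 1.28 of its mESC 1FA interactions and 22.1% ± 3.77 of its mOPC 1FA interactions, and on Cntnap2 in 9.33% ± 0.61 in mESC, while Cntnap2 was not among its first 3 in mOPC. Aebp2 met Plekha5 in 20.2% ± 1.90 in mESC and 21.4% ± 2.71 in mOPC. Ezh1 met Cntnap1 (11.8% ± 2.40 and 20.4% ± 8.78), Suz12 met Gm26563, which overlaps it, Atad5 and Crlf3 (from 5.81% to 6.40% each in mESC 1FA), and Mtf2 met Tmed5, which overlaps it (10.99% ± 0.26), Ccdc18 (7.44% ± 0.48) and Fam69a (6.19% ± 0.46). The first genes of Eed were the overlapping E230029C05Rik (11.3% ± 2.59) and Picalm (9.75% ± 2.81), a clathrin assembly gene, and that of Phf19 was Cutal (7 of its 36 interactions).

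Each member has a RefSeq promoter (250 bases before to 50 after a start, GRCm38.p6) with 17 (Eed) to 41 (Suz12) CG dinucleotides, where the median of 32851 mouse promoters is 7 and 68.6% have fewer than that of Eed. A second Jarid2 promoter had 23 CG, beside 24 in the first, whereas a pair of Aebp2 promoters with 4 each and 1 of Mtf2 with 2 lay below that median. The RNAs whose capture was most like that of Jarid2 over the 15 libraries, among 3425 with a mean of at least 100 interactions, were those of Kat6b (Pearson r = 0.995 of log2 CPM), Wwp2 (0.994), Pias2 (0.994), Abcc4 (0.993) and Rnf169 (0.992). Of the members, Suz12 (0.93), Ezh1 (0.92) and Mtf2 (0.90) came closest, and Aebp2 (0.61) was farthest. These are descriptions, since the libraries fall into 6 groups and share cell lines.

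Counts of other Polycomb genes stand beside the share over all transcripts, which between the cell lines under 1FA was 77.9% called (35.2% higher, 42.7% lower). Of PRC1, the complex that ubiquitylates histone H2A and in part reads the PRC2 mark, 18 of 24 listed genes were tested in mOPC against mESC 1FA, of which 6 were called higher and 8 lower, a share of calls close to that over all transcripts (median log2 fold change −0.24 against −0.20 over all). Cbx7 (−5.84), the chromobox subunit typical of stem cells, Phc1 (−4.51) and Rybp (−1.94) were lower, and Yaf2 (4.57), the paralogue of Rybp, and Phc2 (1.84) were higher. Of 4 further PRC2 genes tested, 1 was called higher and 2 lower (Lcorl 1.13 and, of the lower, Lcor −0.25). Of 3 genes listed as demethylases of the mark 1 was called higher and 1 lower. Among these 3, Uty was listed at 0 in mOPC 1FA, as in mOPC NPM, so that its direction was fixed by the 0. Of 11 trithorax genes, which oppose Polycomb, 1 was called higher and 7 lower.

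In ActD4, where 62% of all transcripts were called (40.3% lower, 21.7% higher), 6 of 18 PRC1 genes were called, all lower, among them Scmh1 (log2 fold change −2.11), Rnf2 (−1.61) and Phc3 (−0.80), and all 6 further PRC2 genes were called, 4 lower, including Lcor (−2.15), Lcorl (−1.46) and Rbbp7 (−0.91), and 2 higher. Of 12 trithorax genes 6 were called higher and 1 lower there, and of the 3 genes listed as demethylases 2 were called lower. In mESC NPM (53.2% of all transcripts called, 28.4% lower and 24.8% higher) 7 of 18 PRC1 genes were called lower and 1 higher, with Rybp (−1.42), Cbx7 (−1.24) and Scmh1 (−0.82) below. Of the 6 further PRC2 genes 3 were called lower there, Lcor (−1.27), Rbbp4 (−1.10) and Lcorl (−0.84), and 2 higher. In mOPC NPM (55.9% of all transcripts called, 24.1% lower and 31.8% higher) 10 of 21 PRC1 genes were called lower and 6 higher, with Yaf2 (−1.54), Rybp (−1.05) and Scmh1 (−0.91) among those below.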

How the data were processed

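The deposited tables were made by the authors: tags were extracted, freed of PCR duplicates (FastUniq), aligned to mm10 (CASAVA 1.8 and BWA 0.7.15-r1140 are named in the submitters' processing notes), assigned to GENCODE M14 genes by strand and paired with 25-kb bins. The deposited adjusted p-value of a pair comes from the authors' one-sided binomial test on pooled replicates, and it entered only as their listing criterion. Here each unique RNA and DNA position was counted once per gene and library (32 samples, 15 libraries). Counts were scaled by TMM, taken as log2 CPM (prior count 0.5; count minimum 10, total minimum 15) and tested with limma 3.58.1 in R 4.3.3 with an intensity trend, using only the groups compared, and calls were at an adjusted p under 0.05. Jarid2 reach was tested by exact two-sided permutation over libraries, in 28 tests. Positions are of GENCODE M21 and RefSeq GRCm38, the build of the tables. Scripts were tested on simulated data. Alternatives were another scaling, copies, pairs counted once, own-gene contacts left out, replicates left out, the replicate block and thinning.

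The members and the gene lists were chosen with earlier results of these data known. All 8 members are named; other Polycomb genes are named where called with a mean of at least 100 interactions, at most 6 per comparison by size, with 1 gene that the rule names not reported here; DNA genes are the 8 most frequent for Jarid2 (the 3 most frequent for the others) and the 5 farthest with at least 10 interactions in every library. The replicate numbers pair 1FA with 2FA: deviations of same-numbered libraries correlated at 0.50, 0.39 and 0.58. The test of the interaction and the look at GCAG were chosen after seeing the data.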

Additional observations from a re-analysis of the deposited data

Results flagged for a closer look

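The effect of NPM on Ezh2 capture differed between the cell lines. The log2 fold change of NPM against 1FA was −0.06 in mESC and 0.78 in mOPC in the joint fit, a difference of 0.84 (SE 0.19, limma, adjusted p = 0.00655). In mESC the Ezh2 RNA had 153 to 194 CPM under 1FA and 156 and 166 under NPM, and in mOPC 43.3 to 48.3 and 79.1 and 81.0. The test was chosen after the values were seen, and of the members beside Ezh2 and Phf19 Eed came closest to the threshold (−1.22, adjusted p = 0.0534).

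Phf19 differed in the same test (4.39, SE 0.67, adjusted p = 0.000745). That value rests on 0 listed interactions in both mESC NPM libraries, depends on the prior count and is no measure of size: its libraries held 8 to 17 interactions in mESC 1FA, 3 to 9 in the 1FA libraries of mOPC and 8 and 10 in the NPM libraries of mOPC.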

How the results depend on the processing

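Of the values that answer a comparison, 367 under an alternative kept their direction and side of the threshold (for a number of calls, stayed within 1.5 times), 12 moved and 4 turned sign. Drawn to equal numbers with pairs of at least 5 kept, the Jarid2 own-gene difference against mESC 1FA became −3.92 percentage points in mOPC 1FA and −7.50 in ActD4, and the difference beyond 1 Mb 5.61 and 0.23. The number of members called became 6 with each pair counted once in 2FA against 1FA (0 otherwise; 76.5% of all transcripts called), and 3 without own-gene contacts in mESC NPM against 1FA (73.6%). In mOPC NPM against 1FA it became 5 under total scaling (69.2% of all transcripts called), 6 without own-gene contacts (72.9%; 7 of 8 RNAs are then at 0 in mOPC NPM) and 7 with each pair once (96.5%). Numbers called in ActD4 and mESC NPM here include Phf19, listed at 0. Between the NPM groups it became 2 without own-gene contacts (69.4%) and 1 with each pair once (99.1%). With 1 library left out the number called ranged from 3 to 5 in either NPM comparison with 1FA, from 4 to 5 in ActD4, and was 4 between the NPM groups (6 with all). The replicate block changed the number called in mOPC NPM (from 3 to 5) and mESC NPM (from 5 to 4) against 1FA. In the former the replicate numbers do not pair the libraries (correlations of −0.18 and 0.34), as in the other comparisons except 2FA; it left 0 called in 2FA.

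For single RNAs, signs turned under total scaling for Aebp2 between the lines (−0.43), for Ezh2 (0.62), Ezh1 (0.00269) and Mtf2 (0.53) in mESC NPM, and for Ezh1 (0.36) and Suz12 (0.79) in mOPC NPM. Without own-gene contacts they turned for Eed in 2FA (−0.039), Mtf2 in mESC NPM (0.16), and Ezh2 (−5.21) and Mtf2 (−5.31) in mOPC NPM, where both are left with 0 interactions, so that the sign was fixed by the 0 and the size depends on the prior count. With each pair once they turned for Ezh2 (−0.13), Suz12 (0.012), Eed (−0.15) and Aebp2 (−0.082) in 2FA, Eed in mESC NPM (−0.97) and Suz12 in mOPC NPM (0.39), and with the replicate block for Ezh2 in mESC NPM (0.11) and Suz12 in mOPC NPM (0.12). With 1 library left out, values spanned 0 for Aebp2 between the lines under 1FA (−0.031 to 0.17), in 2FA for Ezh2 (−0.065 to 0.12) and Eed (−0.065 to 0.12), in ActD4 for Suz12 (−0.013 to 0.15), in mESC NPM for Ezh2 (−0.081 to 0.11) and Mtf2 (−0.23 to 0.037), and in mOPC NPM for Suz12 (−0.18 to 0.12) and Mtf2 (−0.10 to 0.51). The cause of these changes was not tested. Pairs were called on pooled replicates, sequencing depth is unknown from these tables, and the exact tests of 3 against 3 or 3 against 2 libraries could not reach a p below 0.1. Equal draws of DNA genes were not run with pairs counted once or thinned, and the share beyond 1 Mb outside the own gene has no value in mOPC NPM.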
